A study of Mus musculus with 3 samples.

Results

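Tfrc RIA-seq was compared with Actb RIA-seq (control), 1 library each, to ask which classes of RNA took a larger or smaller share of the material recovered with the Tfrc RNA. RIA-seq (RNA interactome analysis and sequencing) fishes one RNA out of fixed cells with antisense oligonucleotides and sequences whatever comes with it. All libraries came from E14 cells, a mouse embryonic stem (ES) cell line of strain 129/Ola. The cells were fixed in 1% glutaraldehyde for 10 min and quenched in 0.125 M glycine for 5 min. The lysate was hybridized at 37 °C overnight with the oligonucleotides and the complexes were collected on streptavidin beads, DNase-treated and copied into cDNA. Oligonucleotides were directed against Actb in the control, against Tfrc in the library of interest and against Malat1 in the remaining library of the series. No drug or genetic change is named for any library, and the number of cultures behind them is not given in the sources used here. The deposited tables give each gene up to 2 counts, either under an Ensembl identifier (Ensembl-ID counts) or with Genome as the reference name (Genome counts). The fold of a gene is its share of all counts in Tfrc RIA-seq divided by its share in Actb RIA-seq. The relative fold divides this by the fold of the median gene of the same kind of count. Members were all genes with 10 or more counts in both libraries, which were 13436 of 24080 listed for Ensembl-ID counts and 8344 of 21733 listed for Genome counts. Classes were set by gene symbol. With 1 library per condition there was no spread between replicates and no test between conditions. Intervals are 95% counting intervals on the log scale and for this reason cover counting error only. The reads carried no molecular identifiers, so PCR copies may be counted as separate reads and the intervals may be too narrow.

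Tfrc encodes the transferrin receptor, which brings iron-loaded transferrin into the cell, and its mRNA is stabilized by iron regulatory proteins when iron is scarce. Actb encodes β-actin of the cytoskeleton. Both are cytoplasmic mRNAs, whereas Malat1 is a long noncoding RNA (lncRNA) retained in nuclear speckles. Among the other classes, most mRNAs end in a poly(A) tail, replication-dependent histone mRNAs end in a stem-loop instead, and the mitochondrial genome is transcribed inside the organelle. Most small nucleolar RNAs (snoRNAs) guide RNA modification in the nucleolus, and most are processed from introns of host genes.

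The libraries held 10405209 counts for Actb, 10078439 for Malat1 and 14553941 for Tfrc, so 3 counts corresponded to between 0.206 and 0.298 counts per 1000000. The 10 genes with the most counts took 52.7%, 23.6% and 33.4% of these libraries in the same order. All 10 of 10 ES cell markers had at least 1098 counts in Actb RIA-seq and 1572 in Tfrc RIA-seq, summing to 3201 and 4261 per 1000000. Fibroblast markers summed to 17.9 and 20.1 per 1000000 over 7 genes, with Lum at 0 in both. Thy1 made up 16.4 and 17.6 of these sums, and 2 and 3 of the 7 genes had 10 or more counts. Markers of differentiated cells summed to 10.5 and 14.6 over 8 genes, with Afp at 0 in both. Of these 8 genes, 3 had 10 or more counts in Actb RIA-seq and 5 in Tfrc RIA-seq. Gata4 had 28 and 45 counts, Pax6 35 and 75, and Nes 37 and 54.

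Most genes had a larger share of Tfrc RIA-seq than of Actb RIA-seq. The fold was above 1 for 10355 of 13436 genes in Ensembl-ID counts (77.1%) and for 8082 of 8344 in Genome counts (96.9%). The median fold was 1.26 in Ensembl-ID counts (25th to 75th percentile 1.02 to 1.65) and 2.86 in Genome counts (2.14 to 3.57). Genome counts as a whole made up 5.25% of Actb RIA-seq and 15.1% of Tfrc RIA-seq. Genome folds taken on the library total therefore include this library-wide difference. With totals of the same kind of count, the median fold was 0.995 in Genome counts and 1.41 in Ensembl-ID counts. At the scale of the library totals, 1906 genes (14.2%) were at 2-fold or more and 88 (0.655%) at 0.5-fold or less in Ensembl-ID counts. The same limits held 6642 genes (79.6%) and 22 genes (0.264%) in Genome counts. On the relative scale the Ensembl-ID counts held 907 genes (6.75%) at 2 or more and 296 (2.2%) at 0.5 or less. Genome counts held 186 (2.23%) and 722 (8.65%). The split into higher and lower genes therefore turned with the scale in Genome counts, whereas in Ensembl-ID counts higher genes outnumbered lower ones on both scales. Intervals lay wholly above the median gene for 25.3% and wholly below it for 24.5% of all genes in Ensembl-ID counts, and for 14.3% and 17.3% in Genome counts. Every class below is described by its relative fold and read against these shares. Intervals narrow as counts rise, and these shares are not matched for depth. At the same fold, a class with more counts can have more intervals off the median gene. Median control counts were 2346 for cytosolic ribosomal protein mRNAs and 31912 for mitochondrial mRNAs. In the middle of 5 groups of protein-coding genes ordered by control counts, the median was 117. Malat1 RIA-seq, which shares the control, had median folds over Actb RIA-seq of 1.40 and 3.59. Its values are placed beside those of Tfrc RIA-seq for reading only, since a count of the shared control enters both.

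**Figure D1:**
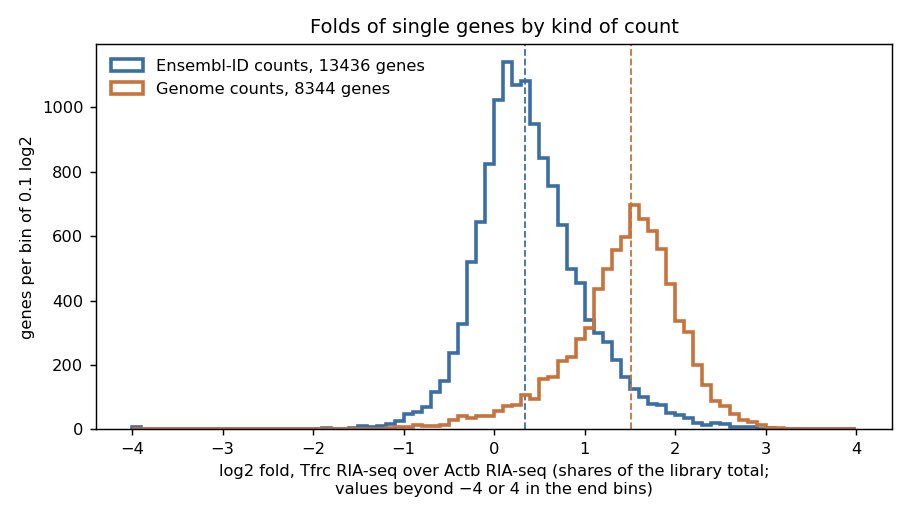
Histogram of the log2 fold of single genes, Tfrc RIA-seq over Actb RIA-seq, in bins of 0.1 for Ensembl-ID counts (blue) and Genome counts (orange), with the median as a dashed line. The Genome distribution is centred on a fold of 2.86 and the Ensembl-ID distribution on 1.26.

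In Ensembl-ID counts, 45 classes held 3 or more members that passed the minimum. Their median relative folds ran from 0.652 for replication-dependent histones to 2.46 for olfactory and vomeronasal receptors, of which 3 of 351 listed genes passed. Between 0.75 and 1.25 lay 37 of the 45 medians. Coding families were close together, with 30 of 31 medians in that range. The classes outside it were the histones, microRNA genes, scaRNAs, box H/ACA snoRNAs, mitochondrial mRNAs, snoRNA host genes, named lncRNAs and the receptors. For 38 of the 45 classes the Malat1 comparison lay on the same side of its own median gene, and the classes it separated from the Tfrc comparison included the mitochondrial mRNAs.

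**Figure D2:**
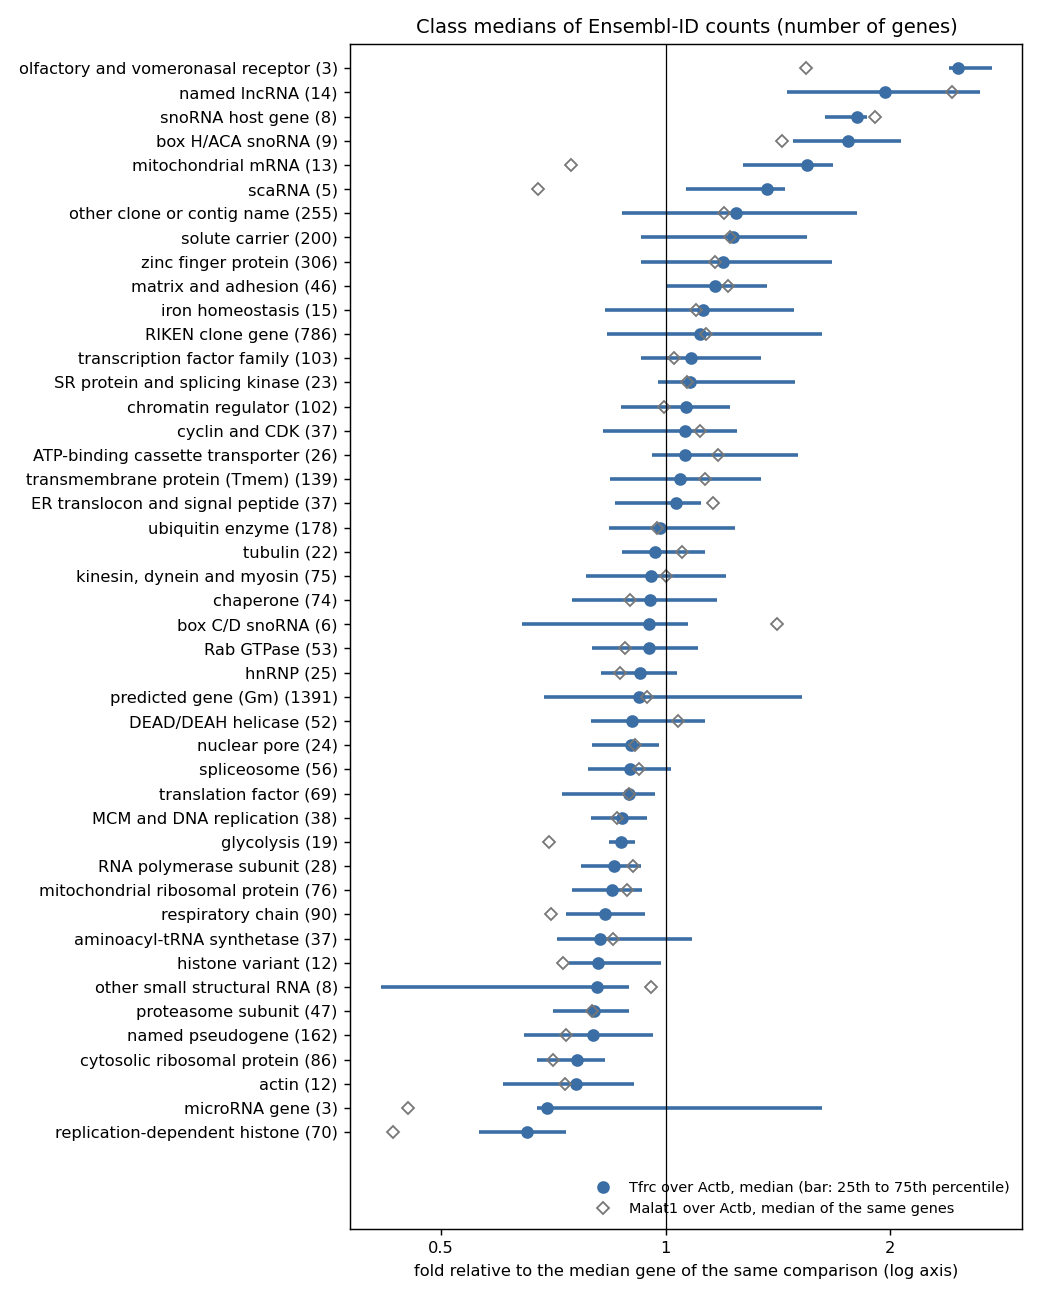
Median relative fold of each class in Ensembl-ID counts (log axis), with the number of genes in brackets; filled circles show Tfrc over Actb with a bar from the 25th to the 75th percentile, and open diamonds show Malat1 over Actb for the same genes. Histones lie lowest at 0.652, and the mitochondrial mRNAs are at 1.54 for Tfrc against 0.746 for Malat1.

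The targeted RNA was examined first. Tfrc (ENSMUSG00000022797) occupies 32609006 to 32632880 of chromosome 16 (NCBIM37, plus strand) and is protein coding with 19 merged exons. It had 378, 877 and 1400 Ensembl-ID counts in the Actb, Malat1 and Tfrc libraries, the order kept for every set of 3 counts from here on. The fold over Actb RIA-seq was 2.65 (2.36 to 2.97) and the relative fold 2.09, which placed Tfrc above 94.3% of genes. In Genome counts Tfrc had 75, 143 and 304, a fold of 2.90 (2.25 to 3.73) and a relative fold of 1.01 (0.787 to 1.30). The target thus stood above the median gene in Ensembl-ID counts and at the median gene in Genome counts. Against Malat1 RIA-seq the fold of Tfrc was 1.11 (1.02 to 1.20) in Ensembl-ID counts and 1.47 (1.21 to 1.80) in Genome counts.

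Among 22 listed iron homeostasis genes, 15 passed the minimum in Ensembl-ID counts and Tfrc had the highest fold of them. Their median relative fold was 1.12, with 5 intervals above the median gene and 4 below, near the shares of all genes (25.3% and 24.5%). Slc11a2, the divalent metal transporter that passes iron out of endosomes, had 234, 507 and 651 counts and a fold of 1.99 (1.71 to 2.31). Epas1, the hypoxia factor HIF-2α whose mRNA binds iron regulatory protein, had 296, 352 and 734 counts and a fold of 1.77 (1.55 to 2.03). The iron storage subunits were on the other side. Ftl1, the ferritin light chain, had 2442, 1477 and 2620 counts and a fold of 0.767 (0.726 to 0.811). Fth1, the heavy chain, had 1905, 1237 and 2614 counts and a fold of 0.981 (0.925 to 1.04). Of the iron regulatory proteins, Aco1 had a fold of 0.870 (0.689 to 1.10) and Ireb2 of 1.07 (0.972 to 1.17). Slc11a2, Epas1, Fth1, Aco1 and Ireb2 were named after their values were seen.

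mRNAs of the mitochondrial genome took a larger share of Tfrc RIA-seq than of either other library. They encode subunits of the respiratory chain and of ATP synthase, and all 13 passed the minimum in Ensembl-ID counts and none was listed in Genome counts. Together they held 46584, 47183 and 78075 counts per 1000000 in the Actb, Malat1 and Tfrc libraries. Their median fold over Actb RIA-seq was 1.95 and the median relative fold 1.54, with 11 intervals above the median gene and 1, that of mt-Co3, below it (25.3% and 24.5% of all genes). In Malat1 RIA-seq the medians were 1.05 and 0.746. Over Malat1 RIA-seq the share in Tfrc RIA-seq was higher for 11 of 13, with a median fold of 1.81.

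The cytochrome oxidase subunits spanned much of the range. mt-Co1, the most counted member, had 168729, 108820 and 296890 counts in Actb, Malat1 and Tfrc RIA-seq and a fold of 1.26 (1.25 to 1.27). mt-Co3 had 32560, 19380 and 52207 counts and the lowest fold, 1.15 (1.13 to 1.16). mt-Co2 had 51205, 50429 and 151938 counts and a fold of 2.12 (2.10 to 2.14). The intervals of these subunits of the same complex did not overlap, though they cover counting error only. Complex I subunits lay between 1.60 for mt-Nd3 and 2.71 for mt-Nd6, with 1.73 for mt-Nd1, 1.95 for mt-Nd5, 2.07 for mt-Nd4l, 2.27 for mt-Nd4 and 2.36 for mt-Nd2. mt-Cytb of complex III had a fold of 1.60, and the ATP synthase subunits mt-Atp6 and mt-Atp8 had folds of 1.82 and 2.02. mt-Nd6, the one mRNA encoded on the light strand, had 12231, 46566 and 46326 counts. It and mt-Nd4l were the members with a larger share of Malat1 RIA-seq than of Tfrc RIA-seq. mt-Nd4l overlaps mt-Nd4 and mt-Atp8 overlaps mt-Atp6, and the handling of strand and of shared reads is not given in the sources used here, so their separate values are uncertain. Members other than mt-Co1, mt-Co3 and mt-Nd6 were named after their values were seen.

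**Figure D3:**
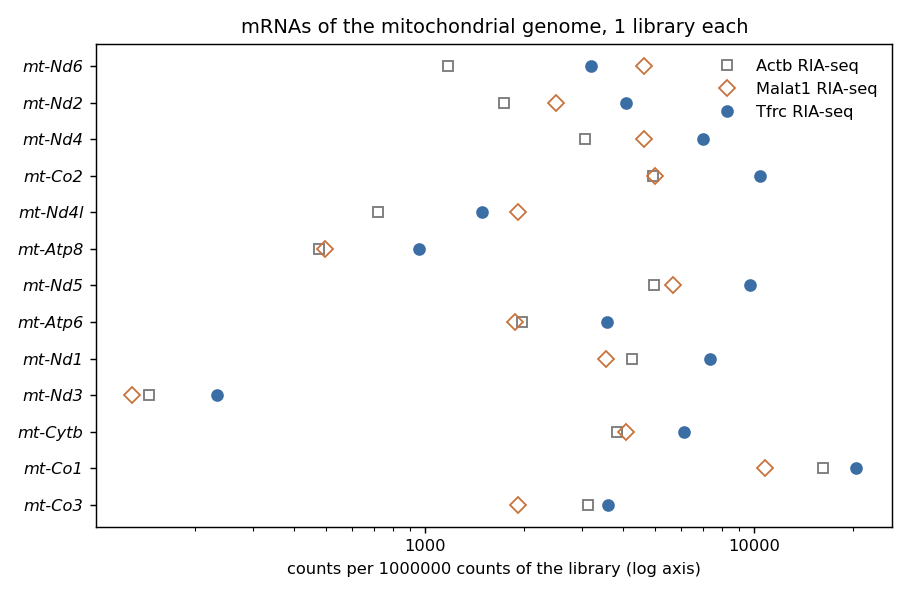
Counts per 1000000 counts of the library (log axis) for the 13 mRNAs of the mitochondrial genome in Actb RIA-seq (squares), Malat1 RIA-seq (diamonds) and Tfrc RIA-seq (circles), ordered by the fold of Tfrc over Actb. Tfrc RIA-seq lies to the right of Actb RIA-seq for every member, and Malat1 RIA-seq lies to the right of Tfrc RIA-seq for mt-Nd6 and mt-Nd4l.

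Nuclear-encoded partners of these proteins did not share the position of the mitochondrial mRNAs. The 90 respiratory chain mRNAs from the nucleus that passed had a median relative fold of 0.829, with 3 intervals above the median gene and 55 below (24.5% of all genes lay below). Atp5b, the β subunit of ATP synthase, had 7851, 6687 and 11552 counts and a fold of 1.05 (1.02 to 1.08). Uqcrq of complex III had the lowest fold, 0.524 (0.479 to 0.574), from 1092, 1009 and 801 counts. The 76 mitochondrial ribosomal protein mRNAs had a median relative fold of 0.849, with 4 intervals above and 35 below.

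Replication-dependent histone mRNAs had the lowest median relative fold of the 45 classes. Of 71 listed, 70 passed in Ensembl-ID counts, with a median fold of 0.825 and a median relative fold of 0.652. Intervals lay below the median gene for 65 of 70 and above it for 1. No member reached a relative fold of 2, and 10 were at 0.5 or less, where 2.2% of all genes were. In Malat1 RIA-seq the same genes were lower still, with a median relative fold of 0.431, and with Malat1 RIA-seq as the control the histone median was 1.55. Linker and core histones lay in the same direction. The median relative fold was 0.599 for 6 H1 genes, 0.725 for 20 H2A genes, 0.710 for 18 H2B genes, 0.612 for 13 H3 genes and 0.545 for 13 H4 genes. In Genome counts 10 members passed, with a median relative fold of 0.222 and 9 of 10 intervals below the median gene.

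Single histone genes ranged widely. Hist4h4, a histone H4 gene outside the main clusters, had 136, 8 and 53 Ensembl-ID counts and the lowest fold of the class, 0.279 (0.203 to 0.383). In Genome counts it had 133, 4 and 32, with a fold of 0.172 (0.117 to 0.253). Hist1h4d, another H4 gene and the most counted member, had 6121, 7251 and 10027 counts and a fold of 1.17 (1.13 to 1.21), a relative fold of 0.926. The highest fold was that of Hist2h2be, an H2B gene, at 2.32 (1.33 to 4.07) from 16, 48 and 52 counts. Many of these genes are near-identical copies, and how reads with several matches were counted is not given in the sources used here, so values of single copies are uncertain. The replacement histones, which are mostly made outside S phase from polyadenylated mRNAs, were closer to other genes but still low. Their 12 members had a median relative fold of 0.812, with 8 intervals below the median gene and 2 above (24.5% and 25.3% of all genes). H2afz had 9023, 8289 and 12857 counts and a fold of 1.02 (0.992 to 1.05).

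The 3′ stem-loop that sets these mRNAs apart from polyadenylated ones was looked for in the NCBIM37 sequence. The motif, 16 bases long, consists of GGNNC followed directly by TTTTN and then AGNNCC, where N is any base. The window ran from 150 bases inside to 100 bases beyond the annotated 3′ end of each gene, with the strand of the gene and the opposite strand counted apart. It was found on the strand of the gene for 42 of 69 histone genes with an annotation (60.9%) and for 2 of 12984 other genes that passed (0.0154%). The opposite strand held it for 1 histone gene and 1 other gene. The search left out 1 chromosome, whose genes are missing from all these totals. Over the rest of the annotation, 46 of 36520 genes (0.126%) had it. Histone genes with the motif had a median relative fold of 0.641 and those without it 0.681, so both sets lay below the median gene. Some genes without it have merged exons of 2438 or 3821 bases, against a class median of 530. A hairpin outside the window, or of another sequence, would be missed. The 2 sets therefore do not compare presence of the stem-loop with its absence. The sites of the lowest member, the most counted member and a member near the class median are shown to let the conserved hairpin be seen; capitals mark the motif.
Hist4h4 (chr6:136752514-136752539, minus strand, fold 0.279): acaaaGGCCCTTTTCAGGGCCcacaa
Hist1h2ba (chr13:24025594-24025619, minus strand, fold 0.816): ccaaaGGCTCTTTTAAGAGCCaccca
Hist1h4d (chr13:23673814-23673839, plus strand, fold 1.17): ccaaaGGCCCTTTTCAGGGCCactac

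Named lncRNAs lay above the median gene. Of 21 listed, 14 passed in Ensembl-ID counts, with a median relative fold of 1.97, 11 intervals above the median gene and none below. At a relative fold of 2 or more were 7 of 14, against 6.75% of all genes. The same genes had a median relative fold of 2.41 in Malat1 RIA-seq, and with Malat1 RIA-seq as the control the median was 0.773. In Genome counts 13 passed, with a median relative fold of 1.25, 3 intervals above and 1 below (14.3% and 17.3% of all genes). By gene type of the annotation the direction was the same. The 350 genes typed lincRNA had a median relative fold of 1.51, with 29.7% at 2 or more, and the 232 typed processed transcript 1.36, against 1.00 for 11932 protein-coding genes.

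Malat1, Neat1, Xist and Tsix, with Meg3 and Mirg of the imprinted Dlk1-Dio3 region, made up most of the upper part. Malat1 (ENSMUSG00000092341, chromosome 19) had 19076, 107387 and 102461 counts, a fold of 3.84 (3.78 to 3.90) and a relative fold of 3.04. Neat1, the scaffold of paraspeckles, had 562, 3033 and 2174 counts and a fold of 2.77 (2.52 to 3.03). Meg3 had 533, 2446 and 2122 counts and a fold of 2.85 (2.59 to 3.13). Its neighbours had folds of 2.21 (2.00 to 2.43) for Rian and 3.54 (2.68 to 4.67) for Mirg. All 5 had a larger share of Malat1 RIA-seq than of Tfrc RIA-seq. Xist, the X-inactivation RNA, had the highest fold at 5.83 (4.83 to 7.03), from 123, 767 and 1003 counts, and its antisense partner Tsix had 73, 439 and 355 counts and a fold of 3.48 (2.70 to 4.47). Reads of this overlapping pair cannot be told apart without strand. Dleu2 was the member with the clearest excess over Malat1 RIA-seq, 1.33-fold, from 81, 171 and 328 counts. H19, an imprinted RNA found mainly in the cytoplasm, was lowest at 1.12 (0.908 to 1.39), from 138, 130 and 217 counts. Miat came next at 1.49 (0.748 to 2.96), from 12, 24 and 25 counts. Above it were Pvt1 at 1.73, Gt(ROSA)26Sor at 1.80, Mir17hg at 1.94 and Tug1 at 1.98. Whether the order follows location in the cell was not tested. Neat1, Meg3, Rian, Mirg, Tsix, Dleu2, Miat, Pvt1, Gt(ROSA)26Sor, Mir17hg and Tug1 were named after their values were seen.

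Host genes of snoRNAs, which carry snoRNAs in their introns, lay in the same direction. All 8 that passed of 9 listed had intervals above the median gene, with a median relative fold of 1.80 and 1.90 in Malat1 RIA-seq. Gas5 had the most counts and the lowest fold, 2336, 4300 and 4831 counts and 1.48 (1.41 to 1.55). Snhg11 had the highest, 3.65 (3.16 to 4.22), from 221, 1065 and 1128 counts. In Genome counts, 4 passed and their median relative fold was 0.550, so the position of the class differed between the kinds of count.

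**Figure D4:**
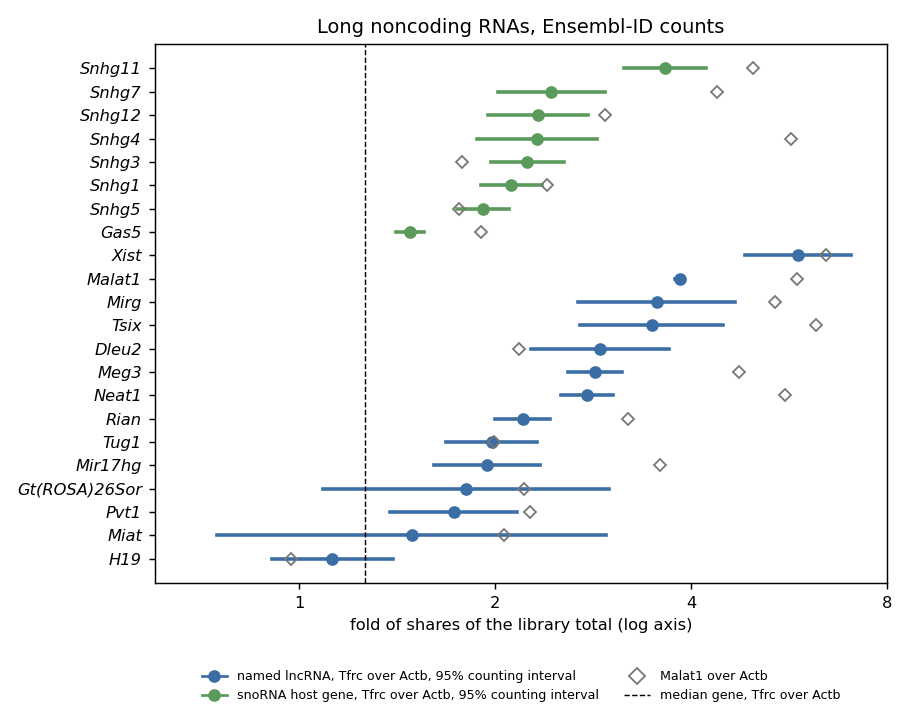
Folds of named lncRNAs (blue) and snoRNA host genes (green), Tfrc RIA-seq over Actb RIA-seq in Ensembl-ID counts, with 95% counting intervals on a log axis; open diamonds are Malat1 RIA-seq over Actb RIA-seq and the dashed line is the median gene at 1.26. H19 is the one member below that line, and Xist lies highest at 5.83.

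Small RNAs were sparsely covered. Most box H/ACA snoRNAs guide pseudouridylation. Of 157 listed by Ensembl identifier, 9 passed, with a median relative fold of 1.76, 5 intervals above the median gene and none below. In Genome counts 6 passed, with a median of 0.785, no interval above and 1 below, so the position of this class differed between the kinds of count. Snora73b had the most counts, 37, 72 and 166, and a fold of 3.21 (2.25 to 4.58). SNORA79 had the highest fold, 3.86 (1.97 to 7.58), from 10, 50 and 54 counts. Most box C/D snoRNAs guide ribose methylation. Of 24 listed by Ensembl identifier, 6 passed, with a median relative fold of 0.951 and no interval off the median gene. Apart from Snord17 these were rows of U3 copies, which may share reads. Scarna2, a Cajal body RNA, had 209, 115 and 196 counts and a fold of 0.670 (0.552 to 0.815), and snoU89 had 106, 399 and 285 and a fold of 1.92 (1.54 to 2.40). In Genome counts 3 scaRNAs passed, with a median relative fold of 0.540. The scaRNAs thus lay on both sides of the median gene, and with 5 to 9 members each the medians of these classes rest on few genes.

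One snoRNA carried most of the Genome counts of its class. snoZ40 (ENSMUSG00000064797), a box C/D snoRNA, occupies 15119966 to 15120039 of chromosome 9 (NCBIM37, plus strand). It had 1147, 3488 and 9181 Genome counts, a fold of 5.72 (5.38 to 6.08) and a relative fold of 2.00. The share in Tfrc RIA-seq was also 1.82-fold that in Malat1 RIA-seq. The median relative fold of the 12 box C/D snoRNAs that passed in Genome counts was 0.699, and the lowest, Snord32a, had 25, 6 and 24 counts and a fold of 0.686 (0.392 to 1.20). Scarna9 on the same chromosome had 537, 2503 and 2838 Genome counts and a fold of 3.78 (3.45 to 4.14). The 74 bases annotated for snoZ40 are shown because it is the most counted snoRNA of the comparison; capitals mark TGATGA, the core of box C, and the last CTGA, the letters of box D.
snoZ40: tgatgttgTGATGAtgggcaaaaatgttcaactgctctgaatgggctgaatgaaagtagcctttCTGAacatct

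Of 8 rows of other structural RNAs that passed, 6 had intervals below the median gene and none above. The 7SK RNA, which holds the elongation factor P-TEFb inactive, had 15161, 36241 and 19789 counts at its chromosome 9 gene. Its fold was 0.933 (0.914 to 0.953), whereas the fold of Malat1 RIA-seq was 2.47. The 3 other 7SK rows had folds between 1.11 and 1.46, the last on chromosome X at a relative fold of 1.15, and such copies may share reads. RNase MRP RNA, which processes ribosomal RNA, had 491, 161 and 314 counts and a fold of 0.457 (0.397 to 0.527). RNase P RNA, which trims tRNA 5′ ends, had rows on chromosomes 8 and 3. The chromosome 8 row had 74, 23 and 54 counts and a fold of 0.522 (0.367 to 0.741). The chromosome 3 row had 19, 3 and 14 counts and a fold of 0.527 (0.264 to 1.05). Whether these rows are working genes or copies was not tested. RNase P RNA was named after its values were seen.

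Rows of tRNA families were listed in Genome counts only. Of 263 rows, each a family name on one chromosome, 34 passed, most of them alanine rows (GCA, GCY or GCY_). The median relative fold was 0.883, with 3 intervals above and 10 below (14.3% and 17.3% of all genes). tRNA-Ser-TCG on chromosome 13 had 131, 23 and 30 counts and a fold of 0.164 (0.110 to 0.243), the lowest of the class. The highest was tRNA-Ala-GCA on chromosome 7 at 5.46 (2.91 to 10.2), from 11, 27 and 84 counts. The most counted row, tRNA-Ala-GCY_ on chromosome 4, had 41, 257 and 266 counts and a fold of 4.64 (3.34 to 6.44). Whether a family row holds tRNA genes or repeats derived from them is not given in the sources used here.

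MicroRNA genes passed mainly in Genome counts, 9 of 171 listed, with a median relative fold of 0.557, no interval above the median gene and 7 below. The most counted, Mir5105, had 8785, 8374 and 12077 counts and a fold of 0.983 (0.956 to 1.01). Most of the others, 6 genes, belong to one cluster on chromosome 7 that is highly transcribed in mouse ES cells. Mir293 was lowest with 17, 27 and 15 counts and a fold of 0.631 (0.315 to 1.26). Mir295 was highest with 10, 50 and 61 counts and a fold of 4.36 (2.23 to 8.51). Between them were Mir291a at 0.919, Mir294 at 1.59, Mir291b at 1.77 and Mir292 at 1.85, the 4 named after their values were seen. The counts cover the hairpin loci and not the mature microRNAs. The mature 3p sequences of 5 members are shown with the seed in capitals (bases 2 to 8). Members that share AAGUGCU lay between 0.919 (0.457 to 1.85) and 4.36 (2.23 to 8.51). Mir293 has a seed of its own, but its interval overlaps that of Mir291a, so their order is not resolved. As the counts are of hairpin loci, the folds do not bear on the seed. The sequences are those of RefSeq (GRCm38.p6).
mmu-miR-293-3p (Mir293 fold 0.631): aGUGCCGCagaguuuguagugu
mmu-miR-291b-3p (Mir291b fold 1.77): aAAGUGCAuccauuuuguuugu
mmu-miR-291a-3p (Mir291a fold 0.919): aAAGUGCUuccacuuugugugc
mmu-miR-294-3p (Mir294 fold 1.59): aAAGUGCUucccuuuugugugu
mmu-miR-295-3p (Mir295 fold 4.36): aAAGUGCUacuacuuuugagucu

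Ribosomal proteins, translation factors, aminoacyl-tRNA synthetases, proteasome subunits and glycolytic enzymes had medians below the median gene. The 86 of 87 cytosolic ribosomal protein mRNAs that passed had a median fold of 0.963 and a median relative fold of 0.762. Of their intervals, 84 lay below the median gene and none above, against 24.5% and 25.3% of all genes. Rpl4 was most counted, with 14957, 14099 and 18304 counts and a fold of 0.875 (0.856 to 0.894). The extremes were Rplp1 of the ribosomal stalk at 0.646 (0.591 to 0.706) and Rpl7l1, a paralogue of Rpl7, at 1.21 (1.06 to 1.39). The spread within the family was thus small, and its relative folds ran from 0.511 to 0.960. Translation factors had a median relative fold of 0.894 over 69 genes, with 40 intervals below and 10 above, and Eef1a1, the main elongation factor, had 22836, 16209 and 27924 counts and a fold of 0.874 (0.859 to 0.890). Proteasome subunits had a median of 0.802 over 47 genes with 32 intervals below, and glycolytic enzymes 0.871 over 19 genes with 13 below. The median for 37 aminoacyl-tRNA synthetases was 0.816. Lars2, which carries more counts than any other gene, had 3334571, 1709958 and 3228813 and a fold of 0.692 (0.691 to 0.693). Its Ensembl-ID and Genome counts together took 32.0%, 17.0% and 22.2% of the libraries. Whether those reads come from the mRNA of this gene was not tested. When genes were limited to 100 to under 500 counts in Actb RIA-seq, a choice made after the data were seen, 6 ribosomal protein mRNAs were left, with a median of 0.890 relative to all genes of that range.

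Zinc finger proteins, solute carriers and matrix and adhesion genes had medians above it in Ensembl-ID counts, whereas Rab GTPases (0.949), nuclear pore components (0.897) and ubiquitin enzymes (0.981) did not. For 306 zinc finger (Zfp) mRNAs the median relative fold was 1.19, with 120 intervals above the median gene, 30 below and 36 genes at 2 or more. Of all genes, 25.3% had intervals above, 24.5% had intervals below and 6.75% were at 2 or more. In Genome counts 133 Zfp mRNAs had a median of 0.903, below the median gene. Zfp42 (Rex1), a pluripotency marker and the most counted member, had 3981, 2847 and 7501 counts and a fold of 1.35 (1.30 to 1.40). Zfp353 had the highest fold, 6.64 (5.94 to 7.43), from 339, 2203 and 3148 counts, and Zfp82 the lowest, 0.458 (0.244 to 0.857), from 25, 28 and 16. For 200 solute carriers the median was 1.23, with 82 intervals above and 21 below. Slc2a3, a glucose transporter, had 4411, 9519 and 8326 counts and a fold of 1.35 (1.30 to 1.40). Slc17a9, which loads ATP into vesicles, was highest at 6.83 (4.31 to 10.8), from 20, 121 and 191 counts. Over 46 matrix and adhesion genes the median was 1.16, and Lamc1, a laminin chain, had 1888, 3149 and 3677 counts and a fold of 1.39 (1.32 to 1.47). In the range of 100 to under 500 control counts the medians were 1.17 for both 79 Zfp mRNAs and 64 solute carriers, and 0.638 for 35 histones. Set against Malat1 RIA-seq, the medians were 1.01 for Zfp mRNAs and 1.00 for solute carriers.

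Families of RNA processing and chromatin lay on both sides of the median gene. SR proteins and splicing kinases had a median of 1.08 over 23 genes, with 13 intervals above and 3 below (25.3% and 24.5% of all genes). Srrm2, a scaffold of nuclear speckles, had 5127, 12294 and 14028 counts and a fold of 1.96 (1.89 to 2.02), and Srpk2, a kinase of SR proteins, was lowest at 0.900 (0.751 to 1.08). Spliceosome components had a median of 0.894 over 56 genes, with 9 intervals above and 24 below. For 25 hnRNPs it was 0.924, with 6 above, near the share of all genes, and 12 below. Chromatin regulators had 1.06 over 102, with 39 above and 27 below, the latter near the share of all genes. Among them were Tet1, a 5-methylcytosine oxidase, at 6959, 16535 and 15033 counts and a fold of 1.54 (1.50 to 1.59), and Kdm1a, a histone demethylase, lowest at 0.737 (0.678 to 0.802). Among transcription factor families the median was 1.08 over 103 genes, and Pou5f1 (Oct4) had 3838, 7859 and 6247 counts and a fold of 1.16 (1.12 to 1.21). In Genome counts the coding families with 3 or more members had medians between 0.716 and 1.14.

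Across protein-coding genes the fold followed the length of the merged exons. In 5 groups of equal size ordered by exon length, the genes had median folds of 1.08, 1.20, 1.28, 1.34 and 1.44 from the shortest to the longest in Ensembl-ID counts. Among genes with 100 to under 500 counts in Actb RIA-seq the 5 groups had 1.05, 1.15, 1.23, 1.30 and 1.41. Genome counts gave 2.45, 2.74, 2.87, 3.01 and 3.15 over 7837 matched genes. By intron length the Genome medians were 2.20 in the group with the shortest introns and 3.23 in that with the longest, and 50 single-exon genes had a median fold of 0.920. By control counts, the median fold ran from 1.57 in the group with the fewest to 1.13 in that with the most. Control counts are also the denominator of the fold, so part of this fall is built in. A relation to depth itself was not tested. The minimum of 10 counts in both libraries also bears on the group with the fewest. Ribosomal protein, respiratory chain and histone mRNAs are short, with median exon lengths of 1434, 1304.5 and 530 bases, against 3827 for the Zfp mRNAs, and the part of length in the class medians was not tested. For Malat1 RIA-seq the 5 medians by exon length ran from 1.14 to 1.64.

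**Figure D5:**
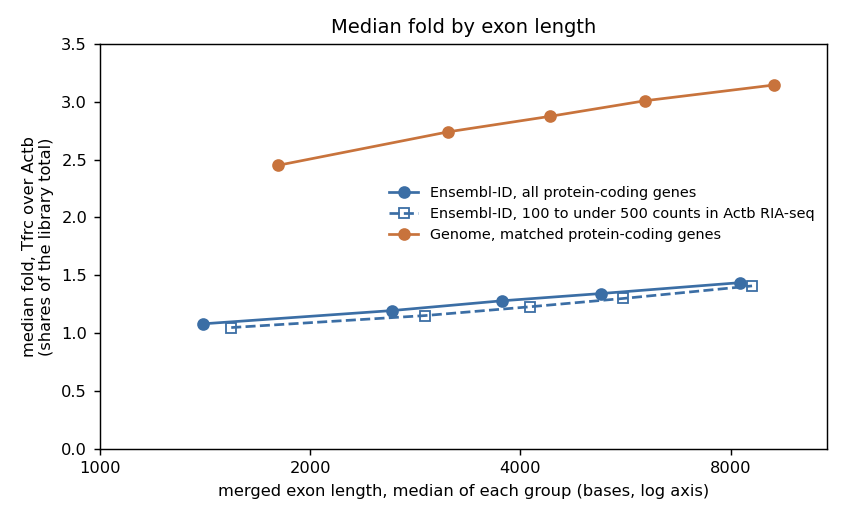
Median fold, Tfrc RIA-seq over Actb RIA-seq, in 5 equal groups of protein-coding genes ordered by merged exon length (log axis, bases); circles show all genes of each kind of count and open squares show Ensembl-ID counts of genes with 100 to under 500 counts in Actb RIA-seq. Every line rises from the shortest to the longest group, from 1.08 to 1.44 for all Ensembl-ID genes.

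The highest Ensembl-ID folds belonged to predicted genes that share repeated sequence. Ranked by the lower bound of the interval, Gm16869 (chromosome 9) came first with 289, 2789 and 6436 counts and a fold of 15.9 (14.2 to 17.9). It was followed by Gm10800 on chromosome 2 at 14.4 (12.1 to 17.2), Gm10801 on chromosome 2 at 17.3 (10.9 to 27.3), Gm10718 on chromosome 9 at 12.8 (9.19 to 18.0) and Gm10721 on chromosome 9 at 13.5 (8.02 to 22.7). The sixth was Klk14, a kallikrein-related protease gene, at 11.2 (7.46 to 16.8), from 25, 310 and 391 counts. All 6 were also high in Malat1 RIA-seq, with folds over Actb RIA-seq between 6.91 and 12.8. The merged exons of every pair among the 5 predicted genes shared an exact run of 57 to 176 bases, against 10 or 11 with Actb, so their counts cannot be separated by gene. The same stretch of each is shown to make this visible; capitals mark bases inside a run of 14 or more that all 5 genes contain, and each is printed on the strand on which it aligns.
Gm16869: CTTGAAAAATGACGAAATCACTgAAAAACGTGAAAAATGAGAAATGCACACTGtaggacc
Gm10800: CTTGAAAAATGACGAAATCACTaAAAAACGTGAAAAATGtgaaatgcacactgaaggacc
Gm10801: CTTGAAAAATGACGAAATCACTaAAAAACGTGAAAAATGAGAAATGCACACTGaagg
Gm10718: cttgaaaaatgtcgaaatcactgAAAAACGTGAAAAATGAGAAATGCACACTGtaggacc
Gm10721: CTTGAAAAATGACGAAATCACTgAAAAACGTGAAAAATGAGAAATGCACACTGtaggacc

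The lowest Ensembl-ID folds were those of the control target, γ-actin and 4 pseudogenes. Actb (ENSMUSG00000029580) had 759734, 8942 and 13430 Ensembl-ID counts, a fold of 0.0126, and 240, 22 and 15 Genome counts, a fold of 0.0447 (0.0265 to 0.0753). Actg1, cytoplasmic γ-actin, had 58380, 2913 and 3795 counts and a fold of 0.0465 (0.0450 to 0.0480). The pseudogenes Gm15725 and Actg-ps1 were at 0.00780 and 0.00848, and Gm8399 and Gm12715 at 0.0325 and 0.0411. The merged exons of Gm15725 shared an exact run of 119 bases with those of Actb and the other genes a run of 62, so their reads cannot be separated by gene where they fall there. Acta2, smooth muscle α-actin, had 97, 3 and 0 counts and was thus at least 45.2-fold lower in Tfrc RIA-seq when the 0 is set to 3 counts. The other 10 members of the actin class that passed, all actin-related proteins, lay between 0.733 for Actr8 and 2.69 for Actr5, which belong to the INO80 chromatin remodelling complex. Acta2 and Actr8 were named after their values were seen. Pseudogenes as a class were low too. The 162 named pseudogenes that passed had a median relative fold of 0.798, with 74 intervals below and 10 above (24.5% and 25.3% of all genes). The 756 genes typed pseudogene had 0.768. Tpt1-ps3 was the most counted, with 2689, 3134 and 3736 counts and a fold of 0.993 (0.945 to 1.04).

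In Genome counts the top of the list was made of coding genes with few control counts. Fbxl20, an F-box protein gene, had 24, 326 and 321 counts and a fold of 9.56 (6.32 to 14.5). E2f5, an E2F repressor, had 11, 81 and 168 counts and a fold of 10.9 (5.93 to 20.1), and Ugp2, UDP-glucose pyrophosphorylase, had 10, 81 and 157 and a fold of 11.2 (5.92 to 21.3). Dnahc12, an axonemal dynein, differed from these in Malat1 RIA-seq, with 16, 34 and 210 counts and a fold of 9.38 (5.64 to 15.6). The other 2 of the 6 were Fam108b at 7.90 and Wapal, a cohesin release factor, at 7.32. Among the lowest, beside Actb and the tRNA and histone rows already given, was Cd44, a hyaluronan receptor, with 211, 157 and 92 counts and a fold of 0.312 (0.244 to 0.398). A further 19 of 21733 listed genes were at 0 Genome counts in the control with 30 or more in Tfrc RIA-seq, and none had the reverse. Zfp574 had the most of them, 79 counts, at least 18.8-fold higher when the 0 is set to 3 counts. Actb RIA-seq held 546772 Genome counts and Tfrc RIA-seq 2197689, so the 2 directions were not equally open to such a gene.

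Both kinds of count passed for 7511 genes, and the Genome fold exceeded the Ensembl-ID fold for 6911 (92.0%). Relative folds of 2 or more were seen for 279 of them in Ensembl-ID counts and for 153 in Genome counts, and 7 genes had both. These 7 were 2.51% of the first set and 4.58% of the second, near the shares over all 7511 genes, which were 2.04% for Genome counts and 3.71% for Ensembl-ID counts.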

How the data were processed

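The authors deposited raw counts per gene, with no normalization, for 3 RIA-seq libraries of E14 cells. The submitters' processing notes name Bowtie (0.12.7) and the builds mm9 and NCBIM37. What the reference name Genome stands for, and how strand and multiple matches were handled, is not given in the sources used here. Both kinds of count were kept apart. Genes with 10 or more counts in both libraries were used, and folds were ratios of shares of the library total with 95% log-scale counting intervals. No test between conditions was possible. Of 24080 Ensembl identifiers, 23743 (98.6%) were in the GENCODE annotation of NCBIM37. TMM factors were computed with edgeR (4.0.16) in R (4.3.3) and all else with Python (3.11.15), numpy (2.4.6), pandas (2.3.3) and scipy (1.17.1), and the fold calculation was checked on simulated data.

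Members, classes and lists were chosen with earlier results of these data known, and the class list was revised after the files were seen. The named genes were the targets and Lars2, the 6 highest and 6 lowest genes per kind of count ranked by the nearer interval bound, and per class the most counted, highest and lowest members. Exceptions are stated where they occur. Alternatives were other count minimums, scales, a pseudocount of 1, Malat1 RIA-seq as the control, the sum of both kinds of count and classes by annotated gene type. The range of 100 to under 500 control counts was added after seeing the data. Sequence searches left out one chromosome.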

Additional observations from a re-analysis of the deposited data

How the results depend on the processing

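No paired analysis was possible because each condition has 1 library, and no replicate could be left out. Counting error is the one error these data give, and genes under 10 counts were outside the comparison. Class medians are relative to the median gene and so kept their values under every rescaling tried. Of 51 class medians, 48 moved by less than their order-statistic interval when all genes above 0 were used, 21 with Malat1 RIA-seq as the control and 29 with both kinds of count summed. Where a cause is not evident from the construction of an alternative, it was not tested.

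With all genes above 0 in both libraries, 4237 genes were at 2-fold or more and 695 at 0.5-fold or less in Ensembl-ID counts (median 1.32), and 11354 and 448 in Genome counts. With 50 or more counts these were 680 and 20 (median 1.21, ribosomal proteins 0.795), and 2403 and 2 (median 2.95). With the median gene set to 1 they were 907 and 296 (median 1, Tfrc 2.09), and 186 and 722 (median 1, Tfrc 1.01). TMM factors gave 919 and 291 (median 1.00, Tfrc 2.10), and 193 and 671 (median 1.01, Tfrc 1.02). Totals without the 10 most counted genes gave 627 and 516 (median 0.898, Tfrc 1.88), and 4264 and 74 (median 2.03, Tfrc 2.06). Totals of the same kind of count gave 51 genes at 0.5-fold or less and a median of 1.41 for Ensembl-ID counts, and 178 and 729 (median 0.995, Tfrc 1.01) for Genome counts. Without the 3 target genes in the totals, 135 Ensembl-ID genes were at 0.5-fold or less, and the medians were 1.18 and 2.67. A pseudocount of 1 gave a Genome median of 2.79. Summing both kinds gave 4194 and 58 genes and a median of 1.56, with class medians of 1.25 for mitochondrial mRNAs, 0.530 for histones and 0.627 for ribosomal proteins. In the range of 100 to under 500 control counts ribosomal proteins were at 0.890.

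Malat1 RIA-seq as the control left 279 genes at 2-fold or more and 634 at 0.5-fold or less in Ensembl-ID counts (median 0.901, Tfrc 1.11), and 189 and 1138 in Genome counts (median 0.781, Tfrc 1.47). Class medians became 2.00 for mitochondrial mRNAs, 1.55 for histones, 0.870 for snoRNA host genes, 0.773 for lncRNAs, 1.06 for ribosomal proteins, 1.01 for Zfp mRNAs and 1.00 for solute carriers. Of 94 single genes, 19 crossed the median gene. Those that went up had relative folds of 1.15 (Actb), 2.12 (Actg-ps1), 1.00 (Actg1) and 1.51 (Gm15725). Up too were RNase MRP RNA at 1.50, the chromosome 8 row of RNase P RNA at 1.80, Mir5105 at 1.28 and tRNA-Ser-TCG at 1.16. Those that went down had 0.928 (Actr5), 0.969 (Klk14), 0.733 (Malat1), 0.667 (Meg3), 0.729 (Mirg), 0.551 (Neat1), 0.830 (SNORA79), 0.814 (Snhg11), 0.621 (Tsix), 0.765 (mt-Nd6) and 0.873 (Fbxl20).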
